A study of Mus musculus with 4 samples.

Results

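TAM-1 macrophages of B16 tumours are the cells that the authors' deposited annotation of monocytes and macrophages names TAM-1 in the library of the melanoma line B16. There were 941 of them among the 2297 B16 cells of that table, which is 41.0% (38.9 to 43.0), and they made up 13.9% (13.1 to 14.7) of the 6773 annotated cells of the B16 library. The name is almost absent from tumours of the Lewis lung carcinoma line LLC, with 2 of 8155 cells in the first LLC library and 4 of 10131 cells in the CITE-seq LLC library. Levels are a gene's unique molecular identifiers (UMIs), summed within a subset and scaled to all UMIs there as CPM, and values in brackets are exact 95% intervals that cover counting error only.

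All libraries were made from subcutaneous tumours on the 10x Genomics platform, with no treatment given in the labels, and each was a single library from a pool of 3 mice. The B16 library came from C57BL/6J mice, and the mice of the CITE-seq LLC library were C57BL/6J as well, whereas those of the first LLC library were F11r fl/fl LysM-Cre-. With 1 library per tumour, cells are no replicates, the subsets were themselves made from these genes, and no difference below carries a test: a gene is called higher or lower at a 1.5-fold ratio of summed UMIs, which is a rule of size. TAM-1 cells were set against the other 1356 B16 cells of the table, which were 518 Immature TAM-1, 396 Monocytes, 213 Mono/TAM Hypoxic, 158 Mono/TAM IFN and the cells of 6 subsets with at most 22 cells each.

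Tumour-associated macrophages (TAMs) arise largely from blood monocytes that enter the tumour, lose monocyte genes such as Ly6c2 and Ccr2 and gain complement, lysosomal and lipid-handling genes. They take up dying cells, present antigen on MHC class II, and release chemokines that draw in monocytes, T cells and other leukocytes. CD40 is a receptor of the TNF receptor family on macrophages, dendritic cells and B cells, through which T cell help and agonist antibodies act.

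TAM-1 cells were the deepest of the B16 subsets, with a median of 13894 UMIs and 3315 genes per cell against 7530 UMIs and 2270 genes in the other B16 cells. Summed over cells this gave 13587970 UMIs in TAM-1 and 11197663 UMIs in the others. Mitochondrial genes took a median of 3.40% of UMIs in TAM-1 and 2.66% in the others. Few cell barcodes recurred between libraries: 3 TAM-1 barcodes were also found in the first LLC library and 6 in the CITE-seq LLC library. In the authors' separate annotation of the B16 library alone, 617 TAM-1 cells were named Mac-1, 306 Mac-2 and 16 Immature Mac, with 1 plasma cell and 1 cDC2 among them. That annotation also holds 322 dividing macrophages (Mac-Prolif), none of which is in the monocyte and macrophage table, so they are neither TAM-1 cells nor part of the reference below.

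The 3 genes given as markers set the name apart. Ccl8, a chemokine ligand of CCR2 and other receptors that draws in monocytes, stood at 1941 CPM in TAM-1, 70.9 CPM in Immature TAM-1, 89.8 CPM in Mono/TAM Hypoxic, 42.8 CPM in Mono/TAM IFN and 15.6 CPM in Monocytes. Vcam1, an adhesion molecule that binds the integrin Itga4 with Itgb1, stood at 277 CPM in TAM-1 and between 1.17 CPM in Monocytes and 13.5 CPM in Mono/TAM IFN. Cadm1, an adhesion molecule of the immunoglobulin family also used as a marker of cDC1 dendritic cells, stood at 224 CPM in TAM-1 and between 1.96 CPM in Monocytes and 17.7 CPM in Immature TAM-1. TAM-1 was thus the highest B16 subset for all 3, and the ratios over the other B16 cells were 33.7 for Ccl8 (31.2 to 36.5), 32.3 for Vcam1 (26.4 to 40.0) and 20.7 for Cadm1 (17.3 to 25.1). Macrophage markers went with the name as well: the 10 genes of that list, among them Csf1r, Adgre1 and C1qa, summed to 24665 CPM in TAM-1 and 3514 to 10409 CPM in the other B16 subsets. Monocyte markers summed to 188 CPM in TAM-1 and 2395 to 10632 CPM in the other B16 subsets.

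Within single cells the markers were far from uniform. With each cell thinned to 3000 UMIs, which keeps 913 TAM-1 cells and 1284 other cells, a Ccl8 UMI was seen in 50.9% of TAM-1 cells and 6.70% of the others, and without thinning in 66.3% of TAM-1 cells and 13.3% of the others. For Vcam1 the thinned shares were 37.6% of TAM-1 cells and 2.02% of the others, and for Cadm1 41.9% of TAM-1 cells and 1.71% of the others. Naive T cells and B cells of the same library, which should lack these genes, gave 5.05% for Ccl8 and 0.187% each for Vcam1 and Cadm1 over 535 thinned cells, so the Ccl8 share outside TAM-1 is close to background. All 909 naive T and B cells of the library had a median of 3337 UMIs, and the 535 are those kept by thinning to 3000 UMIs. At this depth 705 of 913 TAM-1 cells had at least 1 of the 3 markers and 112 had all 3, against 130 and 0 of 1284 other cells. With all UMIs, 92.7% of TAM-1 cells and 19.4% of the other cells had at least 1 marker.

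**Figure D1:**
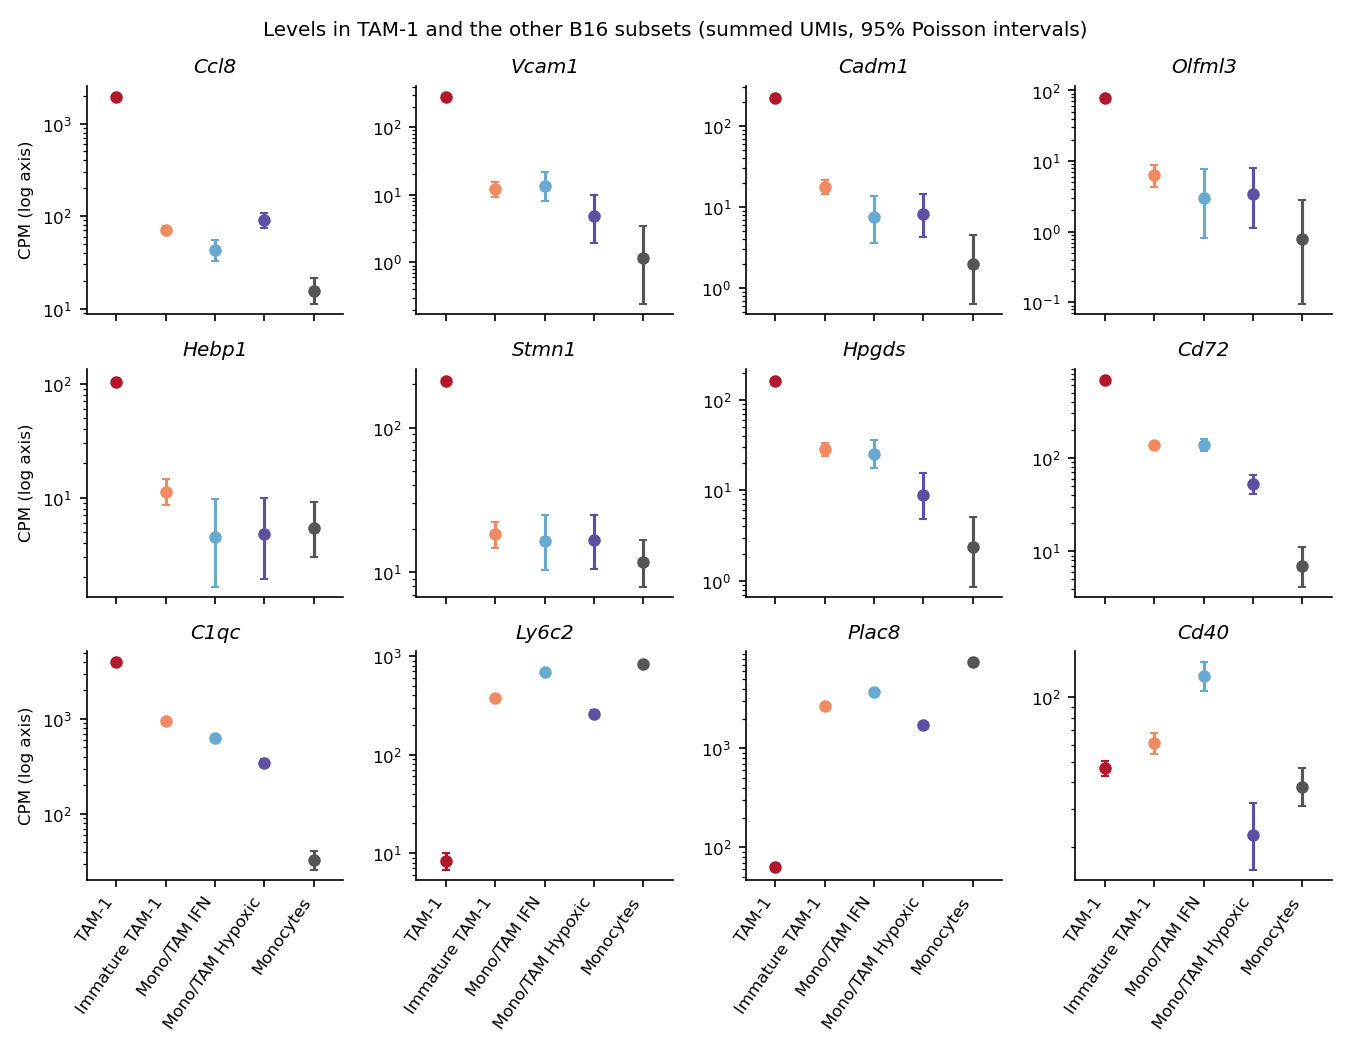
Levels of 12 genes (CPM, log axis) in TAM-1 and the 4 other B16 subsets of at least 50 cells; points are summed UMIs and bars are exact 95% Poisson intervals for counting error. TAM-1 holds the highest point for Ccl8 at 1941 CPM, Vcam1 at 277 CPM and Cadm1 at 224 CPM, while Ly6c2 is lowest there at 8.24 CPM.

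Sequence around the Ccl8 start is shown because Ccl8 had the largest ratio of the 3 markers, with the bases GAGGAA or their complement, the core that the macrophage factor PU.1 binds, in capitals. The stretch is 250 bases before to 50 after the annotated start, from RefSeq on GRCm38.p6, at chr11:82114935-82115234 on the plus strand.
Ccl8: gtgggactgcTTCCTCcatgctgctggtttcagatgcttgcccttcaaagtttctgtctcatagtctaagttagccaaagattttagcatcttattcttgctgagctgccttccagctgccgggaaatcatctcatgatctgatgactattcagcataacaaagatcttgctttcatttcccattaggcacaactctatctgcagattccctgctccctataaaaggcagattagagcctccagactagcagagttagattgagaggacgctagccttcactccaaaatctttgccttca
The match starts 240 bases before the start. These letters are common, being present on either strand in 28.3% of 32851 start regions of the same length. Of the 20 highest genes and Cd40, 14 had a start region in the table, and 8 of those 14 held the letters. A gene was counted if any of its start regions held them, whereas the 28.3% counts single regions, so these are unlike measures. Both describe the letters and say nothing on binding.

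Over all genes, 11141 were measured with at least 20 UMIs on both sides together, of which 2266 (20.3%) were higher in TAM-1 than in the other B16 cells and 1480 (13.3%) lower. The 20 highest, ranked by the interval bound nearest to 1, mix secreted factors, surface receptors and genes of dividing cells. After the markers came Olfml3, a secreted glycoprotein also found in microglia, at 77.6 CPM in TAM-1 and 4.38 CPM in the others (17.7-fold, 13.3 to 24.1). Stmn1, a tubulin-binding protein of dividing cells, stood at 209 CPM in TAM-1 and 16.2 CPM in the others (12.9-fold). Hebp1, a haem-binding protein, stood at 104 CPM in TAM-1 and 8.22 CPM in the others (12.7-fold). All of these were also higher in TAM-1 than in each of the 4 other subsets taken singly, by the bound nearest to 1 at least 8.75 times for Olfml3, 8.34 times for Stmn1 and 7.16 times for Hebp1.

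A pair of the highest genes is better known from B cells. Cd72, an inhibitory lectin best known on B cells, stood at 685 CPM in TAM-1 and 91.8 CPM in the others (7.46-fold). Cd79b, a part of the B cell receptor, stood at 79.6 CPM in TAM-1 and 9.56 CPM in the others (8.33-fold). The defining B cell genes were near 0 in TAM-1: Ms4a1 had 0.957 CPM and Cd79a 3.75 CPM. The 6 B cell markers together, none of which was at 0, summed to 196 CPM in TAM-1, 16.6 to 150.2 CPM in the other B16 subsets and 10408 CPM in B cells of the library. Most of the TAM-1 sum was Ighm at 112 CPM and Cd79b itself. In the annotation of the whole library, Cd79b was at 70.1 CPM in the dividing macrophages and 2335 CPM in B cells. The part of B cell RNA in these ratios was not tested.

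Enzymes and signalling proteins filled most of the remaining places. Hpgds, which makes prostaglandin D2, stood at 162 CPM in TAM-1 and 18.5 CPM in the others (8.77-fold). Cd81, a tetraspanin, stood at 507 CPM in TAM-1 and 70.6 CPM in the others (7.18-fold). Igf1, insulin-like growth factor 1, was 9.78-fold higher, with 5.89 CPM in the others. Igf1, Bhlhe41, a transcriptional repressor, and Cox4i2, a cytochrome c oxidase subunit isoform, were nearest to another subset among the 20. Igf1 stood at 57.6 CPM in TAM-1 and 22.1 CPM in Mono/TAM Hypoxic, Bhlhe41 at 51.6 CPM in TAM-1 and 34.5 CPM in Mono/TAM Hypoxic, and Cox4i2 at 83.4 CPM in TAM-1 and 31.1 CPM in Mono/TAM Hypoxic. Clec4b1, a C-type lectin, was 7.31-fold higher in TAM-1, Cxcl14, a chemokine, 7.69-fold, Serpinb6a, a serine protease inhibitor, 7.08-fold, and Prune2 7.82-fold. The replication gene Pclaf was 11.9-fold higher, and Mcm5, a subunit of the replicative helicase, 7.10-fold. C1qc, a chain of the complement component C1q, had the most UMIs among the 20, at 3953 CPM in TAM-1 and 611 CPM in the others (6.47-fold, 6.31 to 6.64).

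The subset most like TAM-1 was Immature TAM-1, with Pearson r = 0.949 of log2(CPM + 1) over 11141 genes, ahead of Mono/TAM IFN (0.909), Mono/TAM Hypoxic (0.891) and Monocytes (0.862). These correlations describe cells of 1 library that share its free RNA. Against Immature TAM-1, 2049 of 10816 genes (18.9%) were higher in TAM-1 and 1071 (9.90%) lower. Highest by the rule were Ccl8 (27.4-fold), Vcam1 (23.1-fold), Cadm1 (12.7-fold), Bhlhe41 (19.4-fold) and Igf1 (15.2-fold). Lowest were Plac8 (42.2-fold lower), Ly6c2 (45.9-fold lower), Chil3 (53.1-fold lower), Ifitm6 (50.5-fold lower) and Ccl24, an eosinophil-attracting chemokine (38.3-fold lower). Against Monocytes 28.9% of genes were higher and 21.0% lower, against Mono/TAM Hypoxic 39.7% and 14.4%, and against Mono/TAM IFN 35.1% and 14.0%. All genes were shifted towards TAM-1 in the last 2 contrasts, by a median of 0.35 and 0.28 on the log2 scale, and list counts against these subsets are read against that shift. With it taken off, 2829 genes were higher and 2579 lower against Mono/TAM Hypoxic, and 2570 higher and 2358 lower against Mono/TAM IFN.

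Classical monocyte genes had the lowest median of the lists against the pooled other cells. All 13 measured genes of the classical monocyte list were lower in TAM-1 than in the other B16 cells (median log2 ratio -4.09), against 13.3% of all genes, and all 13 were also lower than in each of the 4 subsets. Ly6c2, the surface marker of classical monocytes, stood at 8.24 CPM in TAM-1 and 501 CPM in the others (60.8-fold lower). Ccr2, the receptor by which monocytes enter tissue, stood at 54.3 CPM in TAM-1 and 767 CPM in the others (14.1-fold lower). Plac8 was 58.1-fold lower, at 63.7 CPM in TAM-1 against 3705 CPM in the others, and Chil3, a chitinase-like protein, 69.0-fold lower. Ifitm6 had the lowest ratio, at 2.13 CPM in TAM-1 and 288 CPM in the others (135-fold lower, 93.8 to 202). Of the 11 genes of the non-classical monocyte list, 8 were lower and 1 higher, beside 13.3% and 20.3% of all genes. Ace was 111-fold lower and Adgre4 61.5-fold lower. This list was lower against Monocytes (10 of 11, beside 21.0% of all genes) and Immature TAM-1 (7 of 11, beside 9.90%). Against Mono/TAM Hypoxic, by contrast, 6 of 9 were higher and 2 lower, beside 39.7% and 14.4%, or 3 and 3 with the median of all genes taken off. Against Mono/TAM IFN 3 were higher and 3 lower, beside 35.1% and 14.0%. Of the matrix genes that monocytes make, Fn1, fibronectin, was 26.5-fold lower and Vcan, versican, 41.3-fold lower. The remaining genes of the 12 lowest were Hp, haptoglobin, Ly6i, Mcemp1 and Cxcl3, with Cxcl3 at 3.83 CPM in TAM-1 and 1488 CPM in Mono/TAM Hypoxic.

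**Figure D2:**
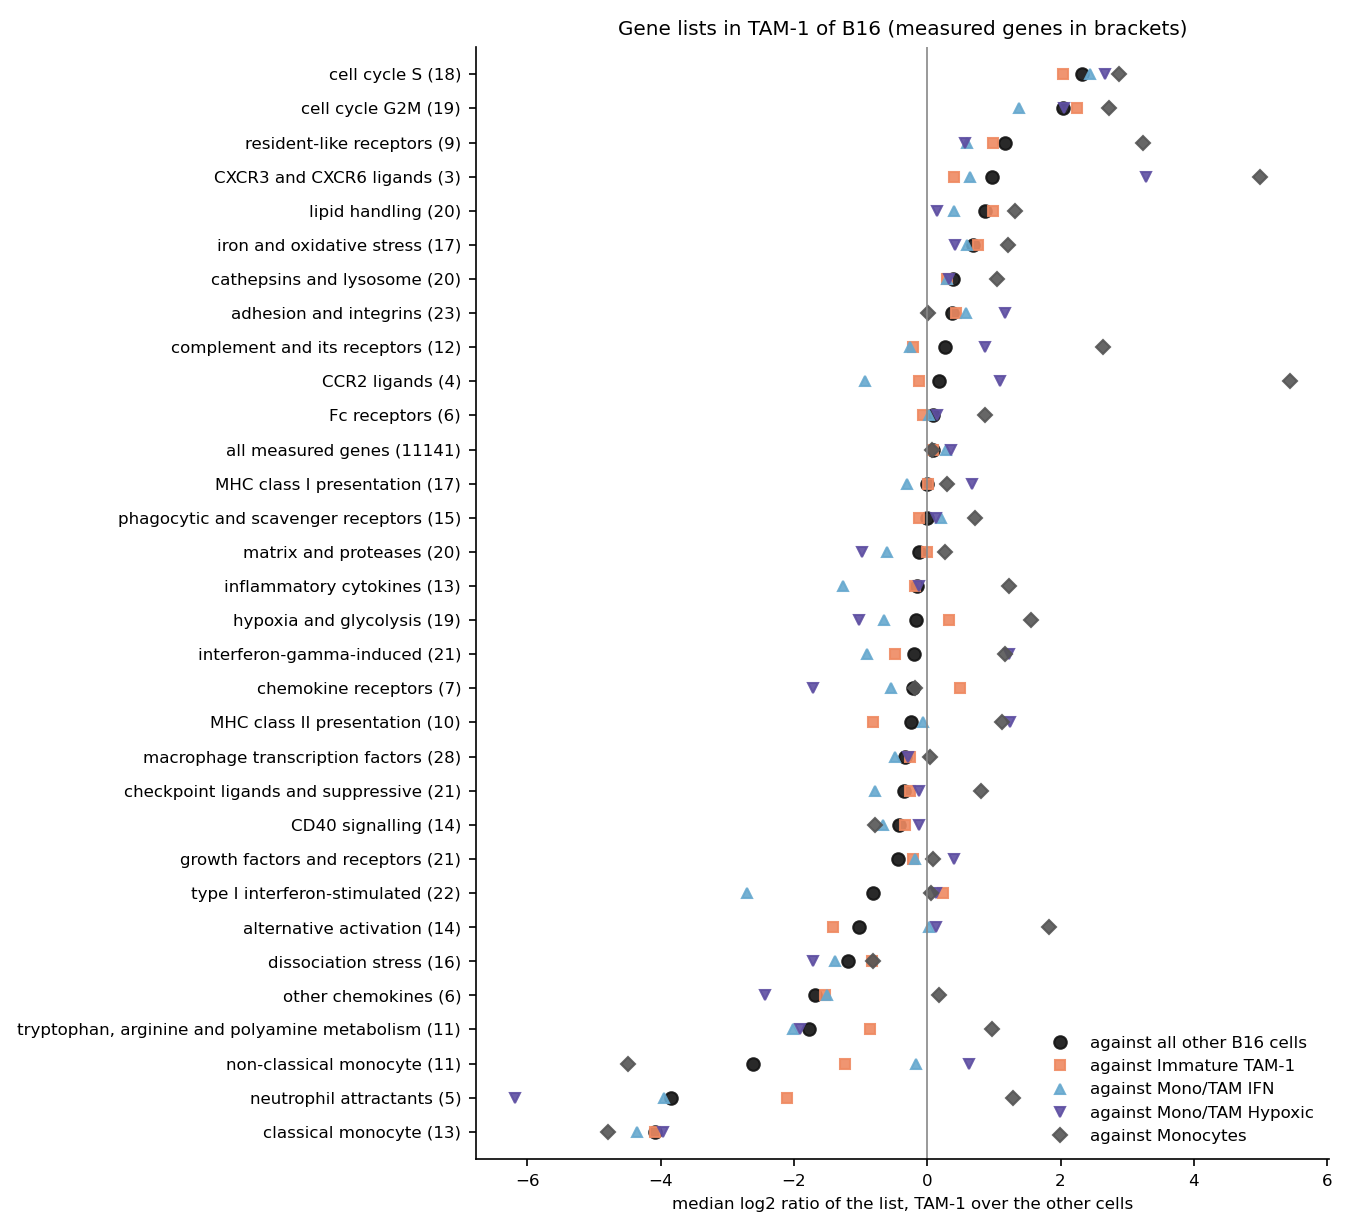
Median log2 ratio of the gene lists named on the axis for TAM-1 over the other B16 cells and over each of 4 B16 subsets; positive values are higher in TAM-1. The classical monocyte list is at -4.09 and the S phase list at 2.32 against the other B16 cells, beside 0.09 for all measured genes.

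Chemokine genes did not move as 1 family. Of the 4 ligands of CCR2, Ccl8 and Ccl12 were higher in TAM-1 and Ccl2 lower, at 954 CPM in TAM-1 and 1504 CPM in the others, while Ccl7 lay between the bounds of size. Cxcl9, an interferon-gamma-induced ligand of CXCR3 that draws in T cells, stood at 1388 CPM in TAM-1 and 566 CPM in the others (2.45-fold, 2.38 to 2.52). Cxcl10, another CXCR3 ligand, went the other way, at 370.4 CPM in TAM-1 and 669.9 CPM in the others (1.81-fold lower), with 2749 CPM in Mono/TAM IFN. Cxcl16, the ligand of CXCR6, stood at 559 CPM in TAM-1 and 286 CPM in the others (1.95-fold), and Ccl4, an inflammatory chemokine, at 779 CPM in TAM-1 and 308 CPM in the others (2.53-fold). Of the 5 neutrophil attractants 4 were lower against the pooled others (median log2 ratio -3.84), beside 13.3% of all genes, including Cxcl2 at 26.7 CPM in TAM-1 and 383 CPM in the others. All 5 were lower than in Mono/TAM Hypoxic, which had 1945 CPM of Cxcl2, whereas 2 were higher and 3 lower than in Immature TAM-1, and 2 of 3 measured were higher than in Monocytes and none lower. Against Immature TAM-1 the Cxcl9 ratio was 1.32, inside the bounds of size, at 1388 CPM in TAM-1 and 1048 CPM in Immature TAM-1. It was 91.0-fold higher than in Monocytes.

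The start region of Cxcl9 is printed because Cxcl9 and Cxcl10 took opposite directions. Capitals mark GGGNNTTCC, a form of the NF-kB site, which either strand holds in 5.82% of start regions. The stretch is chr5:92328030-92328329 on the minus strand, RefSeq on GRCm38.p6.
Cxcl9: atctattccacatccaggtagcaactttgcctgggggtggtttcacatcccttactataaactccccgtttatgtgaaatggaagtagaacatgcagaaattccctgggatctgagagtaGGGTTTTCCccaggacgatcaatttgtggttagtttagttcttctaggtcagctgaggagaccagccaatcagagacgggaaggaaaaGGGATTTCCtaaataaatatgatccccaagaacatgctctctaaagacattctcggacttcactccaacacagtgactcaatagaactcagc
The matches start 130 and 42 bases before the start. None of the 14 matched genes of the 20 highest and Cd40 held these letters in any start region.

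MHC class II genes were lower in TAM-1 than in its nearest neighbour. Of 10 measured genes of MHC class II presentation, 9 were lower in TAM-1 than in Immature TAM-1 and none higher (median log2 ratio -0.81), against 9.90% of all genes lower. H2-Aa, the alpha chain of I-A, stood at 3151 CPM in TAM-1 and 5534 CPM in Immature TAM-1 (1.76-fold lower, 1.73 to 1.78), and Ciita, the master regulator of the class II genes, at 44.5 CPM in TAM-1 and 128 CPM in Immature TAM-1 (2.87-fold lower, 2.57 to 3.21). Against the other subsets the order differed: 8 of the 10 were higher in TAM-1 than in Monocytes, beside 28.9% of all genes, and 8 higher than in Mono/TAM Hypoxic, beside 39.7%, or 6 with the median of all genes taken off, while 8 of 10 lay between the bounds against Mono/TAM IFN. H2-Aa was at 1054 CPM in Monocytes and 2413 CPM in Mono/TAM Hypoxic. Of 17 genes of MHC class I presentation, 15 lay between the bounds against Immature TAM-1 and 2 were higher.

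Type I interferon-stimulated genes were lower in TAM-1 mainly beside Mono/TAM IFN. Of 22 type I interferon-stimulated genes, 13 were lower and none higher against the pooled other cells (median log2 ratio -0.81), beside 13.3% of all genes. All 22 were lower against Mono/TAM IFN (median -2.71), beside 14.0% of all genes. Against Immature TAM-1, 8 were higher and 4 lower, beside 18.9% and 9.90% of all genes. Against Monocytes 9 were higher and 5 lower, beside 28.9% and 21.0% of all genes, or 8 and 7 with the median of all genes taken off, so the list had no clear direction there. Rsad2, an antiviral radical SAM enzyme, stood at 248 CPM in TAM-1, 46.8 CPM in Immature TAM-1, 229 CPM in Mono/TAM Hypoxic, 2544 CPM in Mono/TAM IFN and 52.8 CPM in Monocytes. Isg15, a ubiquitin-like modifier, stood at 161 CPM in TAM-1 and 1465 CPM in Mono/TAM IFN. Of 21 interferon-gamma-induced genes, 5 were higher in TAM-1 than in the pooled cells and 7 lower, beside 20.3% and 13.3% of all genes. The list was lower against Immature TAM-1, with 4 higher and 10 lower (median -0.49), beside 18.9% and 9.90% of all genes. It was also lower against Mono/TAM IFN, with 3 higher and 16 lower (median -0.90), beside 35.1% and 14.0%. Monocytes gave 12 higher and 1 lower, beside 28.9% and 21.0%, and Mono/TAM Hypoxic 17 and 2, beside 39.7% and 14.4%. With the median of all genes taken off, Mono/TAM IFN gave 1 and 16 and Mono/TAM Hypoxic 15 and 2.

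Lipid-handling genes were higher in TAM-1 as a list, and complement and lysosomal genes only in some members. The C1q chains C1qa and C1qb were 5.81-fold and 4.34-fold higher in TAM-1 than in the other B16 cells, and C4b, a component of the classical pathway, stood at 47.5 CPM in TAM-1 and 8.84 CPM in the others. C3, the central component, was 4.46-fold lower, at 31.3 CPM in TAM-1 and 139 CPM in the others. Of the 12 measured genes of the complement list 4 were higher, 2 lower and 6 between the bounds, beside 20.3% and 13.3% of all genes higher and lower. Against Immature TAM-1 the complement list had a median log2 ratio of -0.22, again with 4 higher and 2 lower. Of 20 lipid-handling genes, 11 were higher and 1 lower (median log2 ratio 0.86), beside 20.3% of all genes higher. Apoe, a lipid carrier, was 2.35-fold higher, Lpl, lipoprotein lipase, 3.91-fold, Trem2, a lipid-sensing receptor, 2.49-fold, and Lipa, lysosomal acid lipase, 2.61-fold. The list kept its direction against Immature TAM-1, with 12 higher and 1 lower, beside 18.9% and 9.90% of all genes. It did not against Mono/TAM Hypoxic, where 9 were higher and 6 lower of 19, beside 39.7% and 14.4%. With the median of all genes taken off, 7 were higher and 9 lower there. Ctsd, cathepsin D, was 2.41-fold higher and Grn, progranulin, 2.27-fold higher than in the other B16 cells. Of 20 lysosomal genes 7 were higher, 1 lower and 12 between the bounds, beside 20.3% and 13.3% of all genes higher and lower.

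Of 9 measured resident-like receptors and secreted products, 6 were higher and 2 lower (median log2 ratio 1.16), beside 20.3% and 13.3% of all genes. Cd163, Lyve1 and Timd4 of that list were not measured. The list gave 8 higher and 1 lower against Monocytes, beside 28.9% and 21.0% of all genes. Immature TAM-1 gave 6 and 3, beside 18.9% and 9.90%. Mono/TAM IFN gave 5 and 1 and Mono/TAM Hypoxic 4 and 1, beside 35.1% and 39.7% of all genes higher. With the median of all genes taken off, the list median against Mono/TAM Hypoxic was 0.21. Gas6, a bridge between dying cells and TAM-family receptors, stood at 24.7 CPM in TAM-1 and 2.23 CPM in the others (11.1-fold, 7.37 to 17.4), Mrc1, the mannose receptor, at 235 CPM in TAM-1 and 104 CPM in the others, and Selenop, a selenium carrier, at 403 CPM in TAM-1 and 175 CPM in the others. Of 23 adhesion genes 10 were higher, including Itga6 (4.95-fold), Itga9 (4.51-fold) and the tetraspanin Cd63 (4.09-fold), and 7 were lower, including the integrin chain Itgb7 (7.25-fold lower). Beside them, 20.3% of all genes were higher and 13.3% lower. With the median of all genes taken off, 8 adhesion genes were higher and 8 lower. Fcgr4, an activating Fc receptor, was 2.20-fold higher. Of 17 genes of iron and oxidative stress 9 were higher and 1 lower, beside 20.3% and 13.3% of all genes. Cp, the ferroxidase ceruloplasmin, stood at 16.2 CPM in TAM-1 and 0.536 CPM in the others (30.2-fold, 13.7 to 83.2). Slc40a1, the iron exporter ferroportin, was 4.04-fold higher and Slc7a11, the cystine transporter, 8.48-fold lower. The iron list gave 9 and 1 against Immature TAM-1, beside 18.9% and 9.90% of all genes. Against Monocytes it gave 15 and 1, beside 28.9% and 21.0%. Mono/TAM IFN gave 9 and 1, beside 35.1% and 14.0%, or 8 and 2 with the median of all genes taken off. Mono/TAM Hypoxic gave 8 and 4, beside 39.7% and 14.4%, or 7 and 7 with that median taken off.

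Genes tied to suppressive or alternatively activated macrophages did not move together. Arg1, arginase, stood at 169 CPM in TAM-1 and 971 CPM in the others (5.74-fold lower), with 3171 CPM in Mono/TAM Hypoxic, and Spp1, osteopontin, at 357 CPM in TAM-1 and 1739 CPM in the others (4.87-fold lower). Il10, a suppressive cytokine, was 6.23-fold higher but scarce, at 8.90 CPM in TAM-1 and 1.43 CPM in the others. Of 14 alternative-activation genes 7 were lower and 2 higher against the pooled others, beside 13.3% and 20.3% of all genes. Against Monocytes 9 of 12 were instead higher and 2 lower, beside 28.9% and 21.0% of all genes. Of 21 checkpoint and suppressive genes 5 were higher and 5 lower, beside 20.3% and 13.3% of all genes. With the median of all genes taken off, 4 were higher and 7 lower. Cd86, a ligand of CD28, was among the lower genes, at 70.4 CPM in TAM-1 and 138 CPM in the others. The inflammatory cytokine Il1b was 9.10-fold lower, at 78.5 CPM in TAM-1 and 714 CPM in the others. Tnfsf13b, the B cell survival factor BAFF, was 6.78-fold higher, at 27.2 CPM in TAM-1 and 4.02 CPM in the others, and Pdgfc, a platelet-derived growth factor, 43.3-fold higher (16.6 to 160.3), at 15.5 CPM in TAM-1 and 0.357 CPM in the others. Gdf15, a stress-induced cytokine, was 4.75-fold higher.

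Cd40 itself did not mark TAM-1. It stood at 46.7 CPM in TAM-1, 60.9 CPM in Immature TAM-1, 22.8 CPM in Mono/TAM Hypoxic, 125 CPM in Mono/TAM IFN and 38.3 CPM in Monocytes, and the ratio over the pooled others was 0.836 (0.747 to 0.935), inside the bounds of size. With cells thinned to 3000 UMIs, a Cd40 UMI was seen in 10.6% of TAM-1 cells and 13.9% of the other cells, beside 0.748% of naive T and B cells. Of the 14 genes of CD40 signalling, 6 were lower and 1 higher (median log2 ratio -0.43), beside 13.3% of all genes lower. Traf1, an adaptor of TNF receptors, stood at 10.3 CPM in TAM-1 and 50.5 CPM in the others (4.91-fold lower), and Map3k14, the kinase NIK of the non-canonical NF-kB pathway, at 8.54 CPM in TAM-1 and 24.1 CPM in the others (2.82-fold lower). Nfkb2, Rel, Relb and Birc3 were the other lower genes. Cd83, a maturation marker, was the higher one, at 98.2 CPM in TAM-1 and 54.9 CPM in the others. The dissociation stress list, whose genes respond to enzyme digestion, was lower in TAM-1 too. Against the pooled others 12 of 16 genes were lower and none higher (median log2 ratio -1.19), beside 13.3% and 20.3% of all genes. Immature TAM-1 gave 10 lower and 2 higher, beside 9.90% and 18.9%, and Monocytes 10 and 4, beside 21.0% and 28.9%. Mono/TAM Hypoxic gave 16 lower and Mono/TAM IFN 13, with none higher, beside 14.4% and 14.0% of all genes lower. The part of dissociation stress in these results was not tested.

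Among 28 macrophage transcription factors 6 were higher, which is close to the 20.3% of all genes, and 10 were lower, beside 13.3%. Nr1h3, the oxysterol receptor LXR alpha, stood at 77.9 CPM in TAM-1 and 30.7 CPM in the others (2.54-fold), and Batf3, best known from cDC1 cells, was 1.66-fold higher. Cebpb, a factor of myeloid and inflammatory genes, was 3.64-fold lower, at 439.7 CPM in TAM-1 and 1603 CPM in the others, and Klf4, a factor needed by monocytes, 7.10-fold lower. Maf lay between the bounds.

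Replication genes were higher in TAM-1 than in each of the 4 other B16 subsets. Of 18 S phase genes 17 were higher and none lower (median log2 ratio 2.32), and of 19 G2 and M phase genes 16 were higher and none lower (2.04). Both counts are against the pooled others, where 20.3% of all genes were higher and 13.3% lower. Mcm2, a helicase subunit, stood at 43.3 CPM in TAM-1 and 6.97 CPM in the others, Uhrf1, which maintains DNA methylation, at 32.6 CPM in TAM-1 and 2.23 CPM in the others, and Mki67, a proliferation marker, at 35.0 CPM in TAM-1 and 2.68 CPM in the others. Leaving out the 10% of TAM-1 cells with most cell cycle UMIs, the medians were 1.80 for S phase and 1.37 for G2 and M phase. These values depend on which cells the table holds. With the 322 dividing macrophages of the library added to the other cells, a choice made after seeing the data, the S phase median was 0.34 and the G2 and M phase median -2.21. Stmn1 then stood 0.682 times as high in TAM-1 as in the others, and Pclaf 0.341 times.

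Those dividing macrophages also carried the marker genes. By the names of the B16 library alone, Ccl8 stood at 2240.2 CPM in Mac-1, 772 CPM in Mac-2, 941 CPM in Mac-Prolif, 3645 CPM in Mac-Lyve1 and 87.4 CPM in Immature Mac. Mac-Lyve1 are 53 cells, of which 4 are in the monocyte and macrophage table. Vcam1 stood at 292 CPM in Mac-1, 171 CPM in Mac-2, 193 CPM in Mac-Prolif, 2.68 CPM in Mac-Lyve1 and 12.1 CPM in Immature Mac. Ccl8 was therefore shared with Mac-Lyve1 and Mac-Prolif, and Vcam1 with Mac-Prolif but not with Mac-Lyve1. Cadm1 stood at 224 CPM in Mac-1, 179.8 CPM in Mac-2, 253 CPM in Mac-Prolif and 182 CPM in cDC1 cells. With Mac-Prolif added to the other cells, the ratios were 4.86 for Ccl8, 3.46 for Vcam1 and 2.15 for Cadm1, and 978 genes were higher and 1532 lower, so that 39.0% of called genes were higher, against 60.5% without them.

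**Figure D3:**
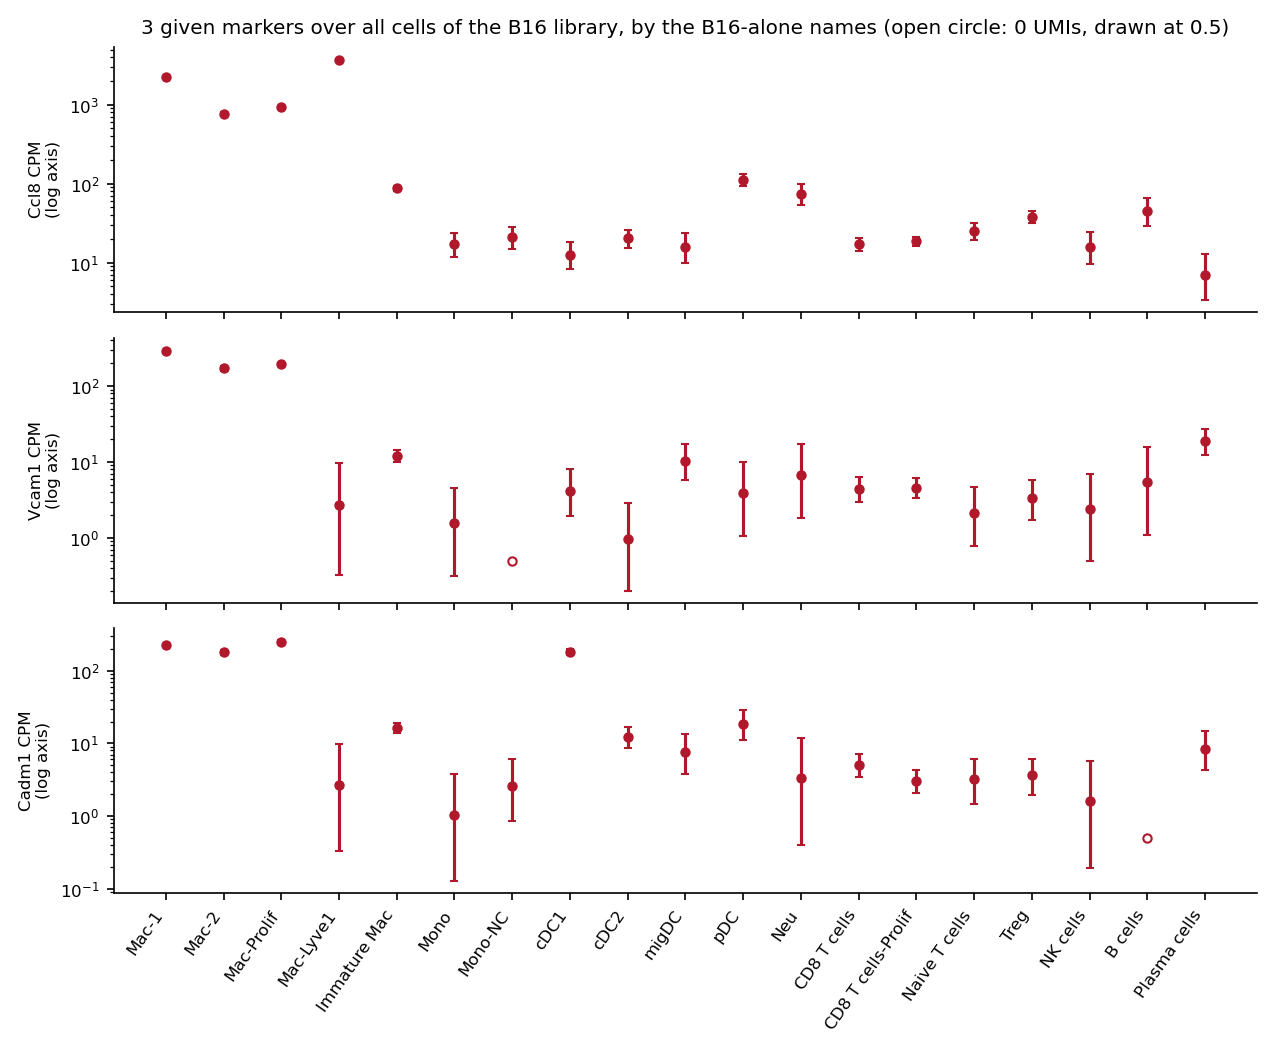
Levels of Ccl8, Vcam1 and Cadm1 (CPM, log axis) in every cell type of the B16 library as named in the annotation of that library alone; open circles are names with 0 UMIs, drawn at 0.5. Mac-Prolif, which are not in the monocyte and macrophage table, reach 941, 193 and 253 CPM, and Mac-Lyve1 have 3645 CPM of Ccl8 but 2.68 CPM of Vcam1 and of Cadm1.

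TAM-1 was not 1 even population. Over the 913 cells thinned to 3000 UMIs, the 6 genes with most variance over their mean were Spp1 (42.4), Malat1 (42.1), Fth1 (40.2), Ccl4 (36.8), Jchain (34.8) and Apoe (29.0). Spp1 was seen in 22.2% of the cells, and the 10% of cells with most of it held 86.8% of its UMIs. Ccl4 was seen in 38.8% of the cells, and its top 10% held 77.6%. Jchain is the joining chain of antibodies, and 1 TAM-1 cell carries a plasma cell name in the annotation of the library alone. Ccl8 came close, at 28.4, with a median of 1 UMI, a highest value of 111 UMIs and 65.4% of UMIs in the top 10% of cells. The top 10% of cells held 51.5% of the UMIs of Vcam1 and 43.7% of those of Cadm1, which have lower means than Ccl8, and variance over mean grows with the mean.

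The names Mac-1 and Mac-2 divide TAM-1 further, and this contrast was added after the annotations had been compared. Mac-1 cells were deeper, with a median of 15806 UMIs against 11414 in Mac-2, and 3603 genes in Mac-1 against 2750.5 in Mac-2. Of 10416 measured genes 2943 (28.3%) were higher in Mac-1 and 1133 (10.9%) lower, with a median shift of 0.26 on the log2 scale. With that shift taken off, 1645 were higher and 1864 lower, so the called genes were 46.9% higher, against 72.2% before. The part of depth in the counts was not tested, although thinning every cell to 3000 UMIs left 2256 higher and 954 lower. The names were made from these same genes, so the values describe how TAM-1 is divided.

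Mac-1 cells had more of the T cell chemokine, class II and replication genes. Cxcl9 stood at 1737 CPM in Mac-1 and 499 CPM in Mac-2 (3.48-fold, 3.32 to 3.66), and Ccl8 at 2386 CPM in Mac-1 and 820.1 CPM in Mac-2 (2.91-fold, 2.80 to 3.02). All 4 CCR2 ligands were higher in Mac-1. All 10 measured class II genes were higher (median log2 ratio 0.87), or 5 of 10 with the shift taken off, and Ciita stood at 52.9 CPM in Mac-1 and 21.0 CPM in Mac-2. Of 18 S phase genes 17 were higher under both scalings, led by Mcm3 at 112 CPM in Mac-1 and 24.0 CPM in Mac-2. Resident-like genes were higher in 8 of 9, or in 6 of 9 with the shift taken off. Cx3cr1, the fractalkine receptor, stood at 186 CPM in Mac-1 and 55.6 CPM in Mac-2. Others among the 15 highest were Cd302, a C-type lectin (4.25-fold), Serpina3g, a protease inhibitor (3.83-fold), and Nrp1, a semaphorin and VEGF co-receptor (3.72-fold).

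Mac-2 cells had more of the type I interferon-stimulated, hypoxia and stress genes, but not of the interferon-gamma-induced genes, of which 10 of 21 were higher in Mac-1 and 3 lower, or 4 and 3 with the shift taken off. All 19 measured genes of hypoxia and glycolysis were lower in Mac-1 than in Mac-2 (median log2 ratio -1.32), 19 of 22 type I interferon-stimulated genes were lower (-1.76) and 14 of 16 dissociation stress genes were lower (-1.23), with none higher in any of these 3 lists under either scaling. Nos2, inducible nitric oxide synthase, stood at 1.43 CPM in Mac-1 and 91.7 CPM in Mac-2 (63.9-fold lower, 37.6 to 118). Rsad2 stood at 32.4 CPM in Mac-1 and 796 CPM in Mac-2 (24.6-fold lower), and Ifit1, an antiviral RNA-binding protein, at 25 CPM in Mac-1 and 342 CPM in Mac-2 (13.7-fold lower). Ifnb1, interferon beta itself, stood at 0.717 CPM in Mac-1 and 44.4 CPM in Mac-2, and at 1.34 CPM in the B16 cells outside TAM-1. Vegfa, the angiogenic growth factor, stood at 19.6 CPM in Mac-1 and 191 CPM in Mac-2, Adm, adrenomedullin, was 36.0-fold lower in Mac-1 and Mmp12, macrophage elastase, 11.3-fold lower. Hspa1a, a heat shock protein, was 10.1-fold lower, and the part of dissociation stress in the contrast was not tested. Red cell RNA differed as well: the 4 measured haemoglobin genes, some of them near-identical copies, were 25.1-fold (Hbb-bs) to 106-fold (Hbb-bt, 29.1 to 874) higher in Mac-1, with Hbb-bs at 112 CPM in Mac-1 and 4.47 CPM in Mac-2. Its part in the contrast was not tested.

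The start region of Ifit1 is shown as that of an interferon-stimulated gene with a large difference between Mac-1 and Mac-2. Capitals mark GAAA, NN and GAAA in a row, or the complement on the other strand, the core of the interferon-stimulated response element. The stretch is chr19:34640639-34640938 on the plus strand, RefSeq on GRCm38.p6.
Ifit1: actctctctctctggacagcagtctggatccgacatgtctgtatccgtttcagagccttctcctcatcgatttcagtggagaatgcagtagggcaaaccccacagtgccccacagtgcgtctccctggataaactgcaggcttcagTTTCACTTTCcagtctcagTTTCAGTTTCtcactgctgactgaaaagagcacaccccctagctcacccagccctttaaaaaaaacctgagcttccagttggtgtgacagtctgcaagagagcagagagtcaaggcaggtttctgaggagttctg
The matches start 104 and 85 bases before the start. Of 22 genes of the type I list 18 had a start region in the table, and 10 of the 18 held these letters, which 3.44% of all start regions hold. Among 14 matched genes of the 20 highest and Cd40, 3 held them. Here too a gene was counted if any of its start regions held the letters, whereas the 3.44% counts single regions.

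**Figure D4:**
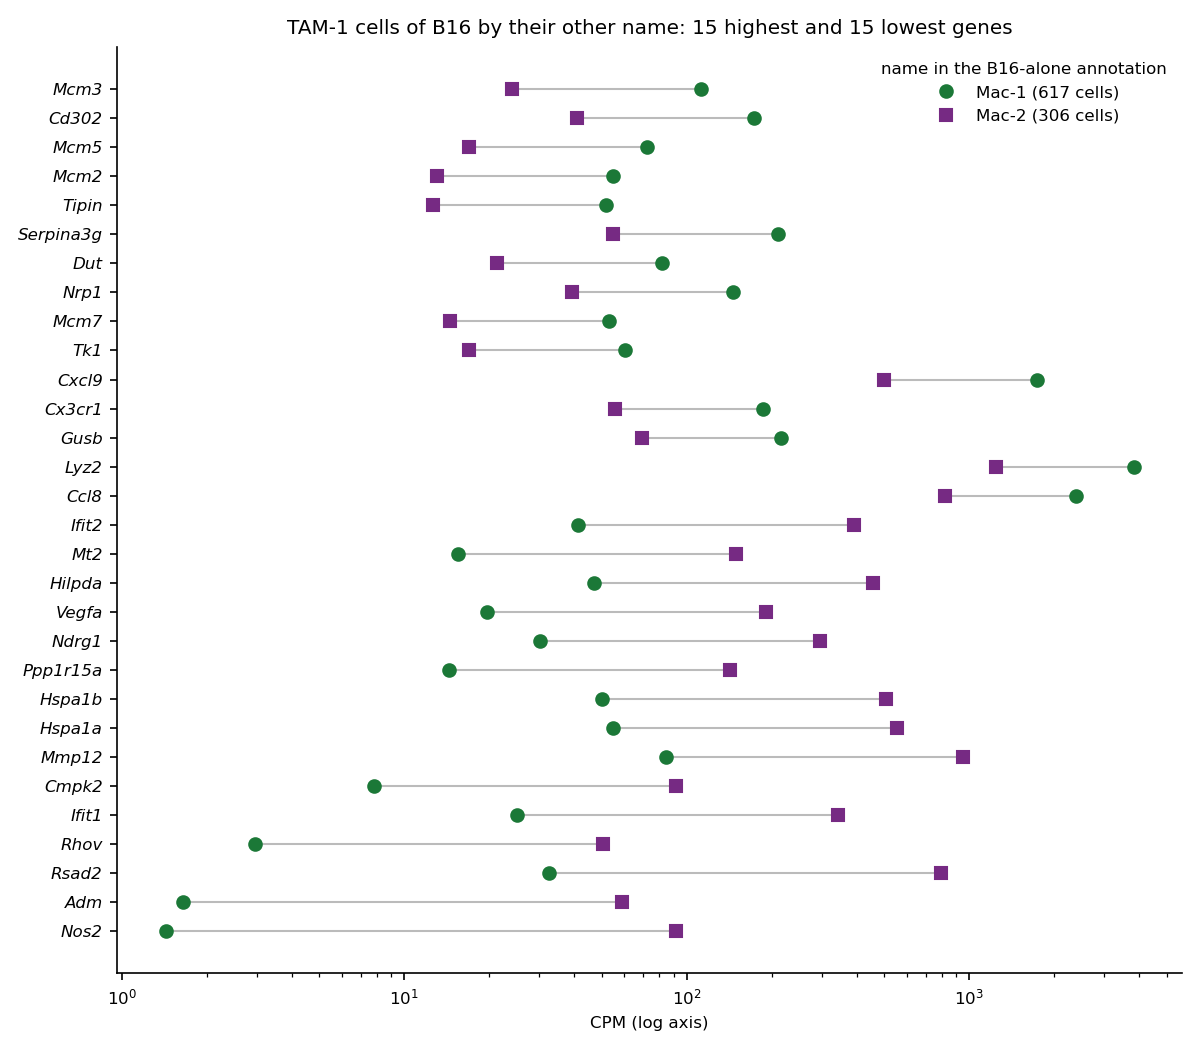
Levels (CPM, log axis) of the 15 highest and 15 lowest genes in TAM-1 cells named Mac-1 against TAM-1 cells named Mac-2 in the annotation of the B16 library alone; each line joins the 2 levels of a gene. Nos2 lies at 1.43 CPM in Mac-1 and 91.7 CPM in Mac-2, and Cxcl9 at 1737 CPM in Mac-1 and 499 CPM in Mac-2.

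The 3 markers did not part in the same way. Over the B16 cells outside TAM-1, Ccl8 was 41.4-fold higher in Mac-1 and 14.2-fold higher in Mac-2, Vcam1 37.1-fold in Mac-1 and 20.2-fold in Mac-2, and Cadm1 22.3-fold in Mac-1 and 17.1-fold in Mac-2. Bhlhe41 ran the other way, at 27.8 CPM in Mac-1 and 117 CPM in Mac-2, as did Cox4i2 at 67.7 CPM in Mac-1 and 127 CPM in Mac-2. Cd40 stood at 40.5 CPM in Mac-1 and 64.3 CPM in Mac-2. Relative to the B16 cells outside TAM-1 that was 0.725 times in Mac-1 (0.638 to 0.824) and 1.15 times in Mac-2 (0.986 to 1.34).

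In the LLC tumours no subset of at least 50 cells came near the B16 TAM-1 level of the markers. Ccl8 stood at 1941 CPM in B16 TAM-1 and at most 111 CPM in an LLC subset, in Immature TAM-1 of the CITE-seq library. Vcam1 stood at 277 CPM in B16 TAM-1 and at most 30.2 CPM in an LLC subset, the same one. Cadm1 stood at 224 CPM in B16 TAM-1 and at most 22.9 CPM in an LLC subset, TAM-4 of the CITE-seq library. Other genes of the 20 highest were shared with LLC. Olfml3 stood at 77.6 CPM in B16 TAM-1 and 56.3 CPM in CITE-seq TAM-4, and Hebp1 at 104 CPM in B16 TAM-1 and 90.9 CPM in LLC TAM-4. C1qc stood at 3953 CPM in B16 TAM-1 and 3237 CPM in LLC TAM-4, and Cd81 at 507 CPM in B16 TAM-1 and 645 CPM in LLC TAM-4. The LLC subsets most like B16 TAM-1 were TAM-4 of the CITE-seq library (r = 0.933) and TAM-3 of the same library (0.926), over 10834 genes. Tumour line and library differ together here and cannot be told apart. The 6 LLC cells named TAM-1 held 63365 UMIs, of which 27 were Ccl8 in 2 cells, 30 Vcam1 in 5 cells and 11 Cadm1 in all 6 cells, and no ratio is given for so few cells.

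**Figure D5:**
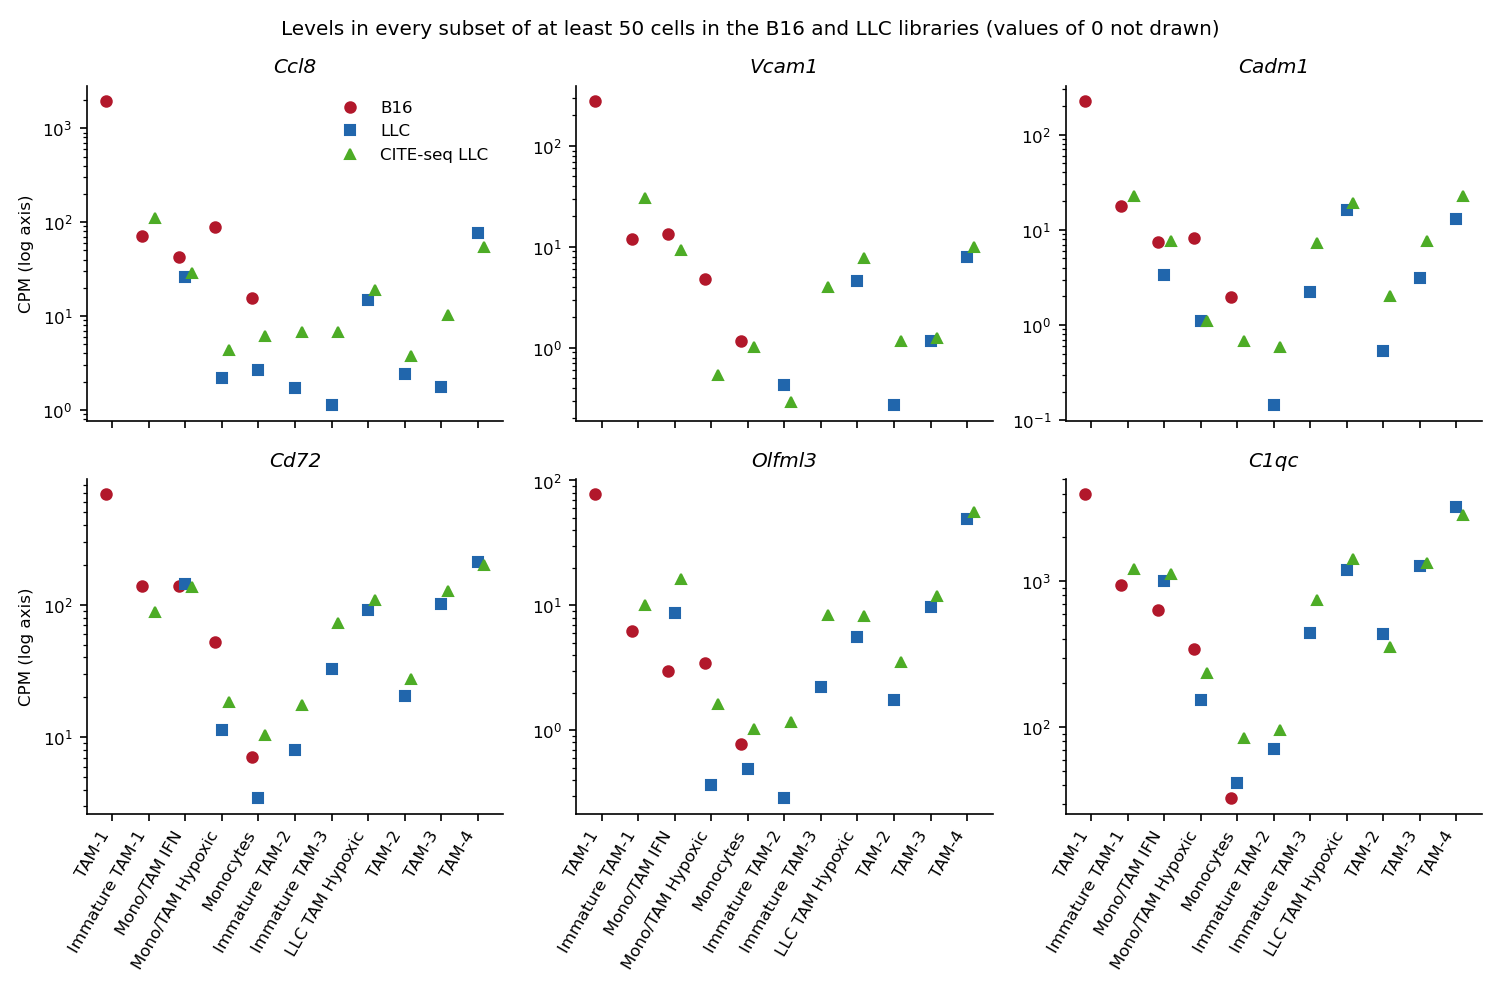
Levels of 6 genes (CPM, log axis) in all subsets of at least 50 cells of the B16, LLC and CITE-seq LLC libraries; each point is 1 subset. B16 TAM-1 lies above every LLC subset for Ccl8 at 1941 CPM and Vcam1 at 277 CPM, while C1qc reaches 3237 CPM in LLC TAM-4.

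Markers of other cell types were low in TAM-1 with a few exceptions. T cell markers summed to 34.3 CPM in TAM-1 and 37.7 to 53.2 CPM in the other B16 subsets, and NK cell markers to 20.2 CPM in TAM-1 and 18.3 to 29.0 CPM in the others. Of the dendritic cell genes Flt3 had 0.221 CPM and Zbtb46 0.0736 CPM. The cDC1 list summed to 609.7 CPM in TAM-1, 202 to 409 CPM in the other subsets and 4124 CPM in cDC1 cells, and Cadm1 and Irf8 were most of it, while Xcr1 had 20.8 CPM in TAM-1 and 636 CPM in cDC1 cells. Plasma cell markers summed to 755 CPM in TAM-1 and 313 to 535 CPM in the others, with Igkc at 516 CPM. Red cell genes summed to 215 CPM in TAM-1 and 5.53 to 18 CPM in the other subsets. Melanocyte genes of the tumour line summed to 169 CPM in TAM-1 and 59.0 to 575 CPM in the others, neutrophil genes to 155 CPM in TAM-1 and 64.1 to 197 CPM in the others, and platelet genes to 522 CPM in TAM-1 and 15.3 to 1232 CPM in the others. The platelet sum in TAM-1 was nearly all Pf4, with Ppbp at 0.442 CPM and Itga2b, Gp9 and Gp1bb absent from the counts. Gpnmb at 79.3 CPM and Mitf at 25.9 CPM led the melanocyte sum in TAM-1, followed by Dct at 20.4 CPM. Gpnmb is also in the lipid-handling list and Mitf in the macrophage transcription factor list, so these sums are not specific to platelets or tumour cells. No marker in the table was at 0 in TAM-1 in any of these lists, and their part in the results was not tested.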

How the data were processed

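Single cells of subcutaneous tumours were counted on the 10x Genomics platform. Per the submitters' processing notes the authors used Cell Ranger with mm10, and neither version was named. Per the labels, the tables hold unnormalized UMI counts left after the authors' filtering of cells and genes, and these deposited counts were used as they stand. Cell names are the authors' deposited annotation. The tables held 12996 genes for monocytes and macrophages, in 3 libraries, and 12801 for the whole B16 library.

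Counts were summed over cells and divided by the total of the subset to give CPM. Ratios have exact conditional binomial 95% intervals, levels exact Poisson intervals and shares exact Clopper-Pearson intervals, all for counting error only, since PCR and sampling of cells are not in them. No test was made, because each group is 1 library of pooled mice. A gene was measured with at least 20 UMIs over both sides. Higher and lower mean a fold of at least 1.5, and a subset was compared when it had at least 50 cells. Genes were named by rule: the 20 highest and 12 lowest by the interval bound nearest to 1 with at least 50 CPM on the higher side, the 10 highest by the weakest bound over subsets, the 5 highest and lowest against the most alike subset, and Ccl8, Vcam1, Cadm1 and Cd40. Examples from the lists were named by size. Some genes that the rule names are not reported here. Within TAM-1, 15 genes on each side of Mac-1 over Mac-2 and the 6 most variable genes were named. Mitochondrial, ribosomal, predicted, Rik, immunoglobulin, T cell receptor, Xist, Tsix, Y-linked and haemoglobin genes were left out of the ranking. The members, the 32 gene lists and the marker lists were chosen with earlier results of these data known. Shares of cells were compared after thinning each cell to 3000 UMIs. Scrublet in scanpy 1.11.5 marked 0 of 6773 cells, so it had not worked, and doublets were not removed. An alternative left out the 6% of cells with the highest score. Ratios were checked on simulated counts. Reads of C4b, Ly6c2 and Hspa1a may be split with their near-identical copies C4a, Ly6c1 and Hspa1b, so their levels are uncertain. Start regions are RefSeq on GRCm38.p6, matched by symbol. Python 3.11.15, numpy 2.4.6, scipy 1.17.1 and pandas 2.3.3 were used.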

Additional observations from a re-analysis of the deposited data

How the results depend on the processing

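Under 10 other settings (another scaling, the mean over cells, minimums of 1 and 100 UMIs, equal weight for each subset, macrophage subsets only, without the cells with most cell cycle UMIs, without high doublet scores, thinning and the table of the B16 library alone), the 35 named genes kept their side of the 1.5-fold bound, with ranges of 27.2 to 39.7 for Ccl8, 23.9 to 40.4 for Vcam1, 14.0 to 32.2 for Cadm1 and 0.713 to 0.885 for Cd40. The minimums of 1 and 100 UMIs only choose which genes are measured and could not change these ratios. The table of the B16 library alone gave the same 2266 genes higher and 1480 lower as the main setting, so it adds no separate check. With at least 100 UMIs, 1473 genes were higher against the other B16 cells. At a fold of 2, 1154 were higher and 796 lower against the other B16 cells, 1135 and 530 against Immature TAM-1, 1978 and 1187 against Monocytes, 2608 and 891 against Mono/TAM Hypoxic, and 2143 and 840 against Mono/TAM IFN. Against other macrophage subsets only (589 cells), the type I interferon list turned to a median of 0.32. TAM-1 were 13.9% of all B16 cells instead of 41.0% of the table. The following were chosen after seeing the data. With the dividing macrophages added, 978 genes were higher, Stmn1 had a ratio of 0.682 and Pclaf of 0.341, and the G2 and M phase list a median of -2.21. Mac-1 over Mac-2 gave 1645 genes higher and 1864 lower under median-of-ratios scaling, and 1175 and 548 at a fold of 2. No paired analysis was possible because each group is 1 library with no replicate, and no replicate could be left out. At these depths, genes under 20 UMIs over both sides, and low levels in the smaller subsets, are not resolved.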

Other observations

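Some cells of the B16 library that bear macrophage names in the annotation of that library alone lie outside the monocyte and macrophage table. Of 724 Mac-1 cells 642 are in the table, of 350 Mac-2 cells 326, of 900 Immature Mac cells 786, of 53 Mac-Lyve1 cells 4 and of 322 Mac-Prolif cells none. In the authors' joint annotation of B16 and LLC, 895 of the 941 TAM-1 cells (95.1%) carry the name TAM-3, so the number in a TAM name does not carry over between the deposited annotations.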
